A study of Arabidopsis thaliana with 4 samples.

Results

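The genes described here are those that read brightest in young *Arabidopsis thaliana* seedlings among genes that carry a locus number and no symbol. They were chosen by their measured signal. A probe set, the group of short probes that reads 1 transcript on an Affymetrix array, was taken when the platform annotation gives it exactly 1 gene named by its locus alone and its signal was at least 6000 on all 4 arrays. Organelle genome and AFFX control probe sets were left out. This gave 82 probe sets for 82 different genes, of 11920 locus-named probe sets and 22746 tested in all. They are 22.8% of the 360 probe sets that reach the same signal. The other 278 comprise 223 with no gene in the annotation, 28 with a symbol and 27 with several genes.

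All seedlings were of the Col-0 ecotype and carried the 35S-GVG transgene, a dexamethasone-dependent activator driven by the broadly active 35S promoter. The control group carried that transgene alone. The RKD4-induced group also carried UAS-RKD4, in which the activator switches on RKD4, a transcription factor of the early embryo. Both groups were moved to 1 µM dexamethasone on day 2 after germination, stayed on it for 24 h and were harvested on day 3, with 2 arrays per group and 1 pool of 60 seedlings per array. Seedlings kept off dexamethasone were not analysed here, and no probe set was assigned to RKD4, so its induction was not checked. What RKD4 does and how the lines differ otherwise cannot be told apart. Median signal was 175 to 185 per array, and the number of arrays limits the precision. Of 20 listed green tissue genes 2 had a named probe set, RCA and LHCB4.1, and both were bright, between 21892 and 41794. The root hair genes EXPA7 and EXPA18 read between 338 and 973 and fell, and the 3 measured of 14 seed reserve genes read at most 64.8, with a fall of PAP85 (1.05 ± 0.25). The part of these markers in the changes below was not tested.

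Translation in a plant cell uses cytosolic ribosomes, whose large and small subunits are built from ribosomal RNA and many kinds of protein, each usually encoded by several near-identical genes. Chloroplasts and mitochondria have ribosomes of their own, and most proteins of the plastid ribosome are encoded in the nucleus. A seedling that has just germinated builds ribosomes in its meristems while its cotyledons assemble the photosynthetic membranes, and transcripts for both processes are textbook examples of abundant messenger RNA. The roles given below are general knowledge of these Arabidopsis genes. The tables used here pair the loci with names and do not describe their proteins, and 2 of the 82 genes, AT5G39570 and AT4G15545, are left without a role.

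Most of the 82 genes encode parts of the cytosolic ribosome. There were 57 such genes, which fall into 41 kinds of ribosomal protein: 32 genes of the large subunit, 20 of the small subunit and 5 of the acidic stalk that recruits elongation factors. The beta subunit gene of the exchange factor for elongation factor 1 (AT5G19510) adds another part of the translation machinery, and 3 genes encode proteins of the plastid ribosome. Another 6 genes serve the chloroplast, 7 serve mitochondria and carbon metabolism, 4 encode wall or secreted proteins and 4 are other or undescribed. Signal depends on the probes as well as on the transcript, so the order of genes by signal is not an order of transcript number.

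Cytosolic ribosomal protein genes held most of the brightest places. AT5G20290, which encodes ribosomal protein S8 of the small subunit, read 21230.4 and 21202 on the control arrays and 23192 and 21566 on the RKD4-induced arrays. Both induced values lay above both control values, though the log2 change of induced over control was 0.08 ± 0.13 (SE; limma, adjusted p = 0.726). AT3G49910, encoding L26 of the large subunit, read 18976 and 22942 in control and 23576 and 18894 in induced seedlings, so that the groups overlapped entirely (0.02 ± 0.17). AT5G15200, encoding S9, read 19126 and 20904 in control against 19943 and 16216 in induced seedlings. AT3G60245, encoding L37a, was steadier, at 18341 and 18477 against 18117 and 16937. The mean signal of the 82 genes over the 4 arrays ran from 6688 to 21797, and their ranks among all tested probe sets from 47 to 416.

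**Figure D1:**
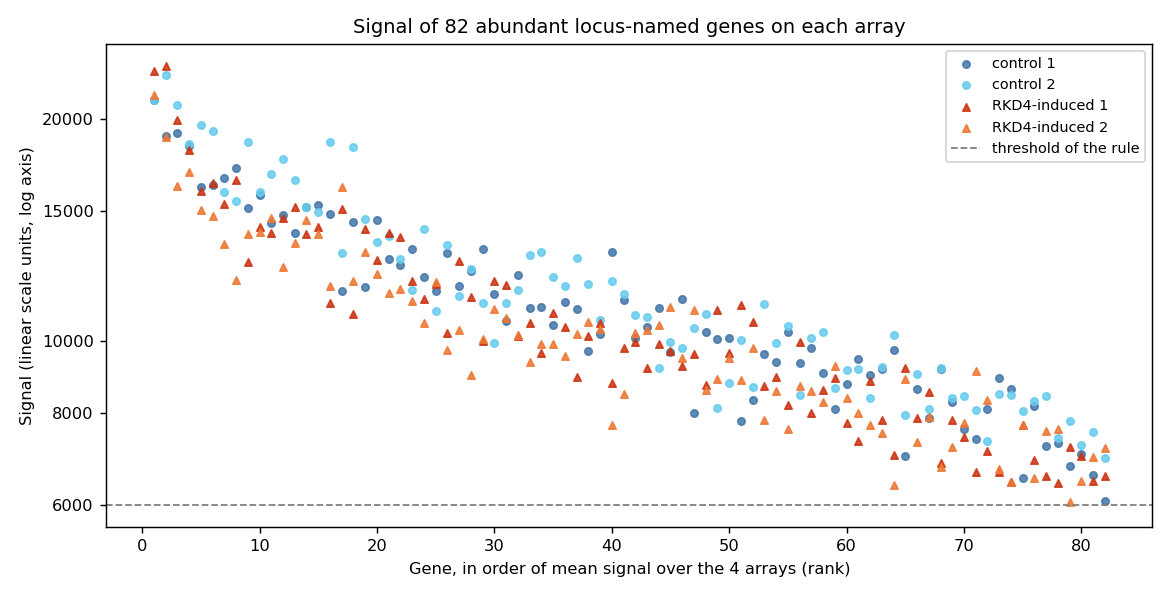
Signal on each array (log axis) of the 82 genes in order of mean signal, with circles for the 2 control and triangles for the 2 RKD4-induced arrays. The dashed line is the threshold of 6000 that chose the genes, and the 4 values of a gene lay within 1.71-fold of each other in every case.

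Across the 82 genes, signal changed little between the lines. None was higher and 7 were lower at an adjusted p under 0.05 in limma, or 8.54%, where 21.8% of all tested probe sets passed (10% higher, 11.8% lower). At an unadjusted p under 0.05, 1 was higher and 16 were lower. The share of all tested probe sets at that unadjusted p was not counted, so these numbers have no background here. The median log2 change was -0.13 for the 82 genes and -0.08 for all tested probe sets, with single genes between -0.62 and 0.33. The rule bears on both counts, since it asks for 6000 on all 4 arrays. It leaves out 18 locus-named genes that reach 6000 on both control arrays only, of which 4 fell, and 21 that reach it on both induced arrays only, of which 13 rose. That none of the 82 was higher is therefore in part set by the rule. Seedlings were read whole, so fewer cells of a type and less RNA per cell cannot be told apart. Without any 1 of the 4 arrays (control replicate 1 or 2, induced replicate 1 or 2) none of the 7 passed, with adjusted p between 0.0618 and 0.190. These fits called 8.07% to 9.77% of all probe sets.

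The spread over arrays is given as a description, since asking for 6000 on every array favours genes whose values lie close together. The highest of a gene's 4 values was a median of 1.23 times its lowest, and the range over genes was 1.04 to 1.71, where all tested probe sets had a median of 1.77. For 78 of the 82 genes this ratio was under 1.5. The pair of control arrays differed by a median of 1.08-fold and the pair of induced arrays by 1.08-fold, and the group means by 1.11-fold. The groups did not overlap in 47 genes, of which 41 were lower and 6 higher in induced seedlings. Over all tested probe sets the groups did not overlap in 61.4% (37% lower, 24.4% higher). Control replicate 2 gave the highest value of 44 genes and induced replicate 2 the lowest of 39. For the other 278 probe sets that reach 6000 on all arrays these counts were 128 and 126. For all 22746 tested probe sets they were 6767 and 6483. The 82 genes made up 5.59% and 5.78% of the summed signal of the control arrays and 5.33% and 5.19% of that of the induced arrays.

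Of the 6 steadiest genes 5 encode proteins of the large subunit. AT3G53430 (L12, which binds the base of the stalk) read 10231 and 10668 in control and 10594 and 10384 in induced seedlings, a range of 1.04-fold. AT4G15000 (L27) read 7871 and 8095 against 8524 and 7895. AT4G37830, encoding a small subunit of cytochrome c oxidase in the mitochondrial respiratory chain, read 10081 and 10847 against 9967 and 10254. The 3 others were AT1G52300 (L37, 15189 and 15163 against 13955 and 14580), AT4G27090 (L14, 11698 and 10998 against 11952 and 12022) and AT3G60245, described above. In these 6 genes the highest value was at most 1.09 times the lowest.

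Large subunit genes of the cytosolic ribosome gave no call. None of the 32 passed, with a median log2 change of -0.09 and single values between -0.33 and 0.13. The groups lay apart in 16, of which 15 were lower in induced seedlings. Of all tested probe sets 21.8% passed, and the groups lay apart in 61.4% (37% lower, 24.4% higher). Among the brightest large subunit genes, AT2G34480 (L18a) read 16261 and 19225 in control and 16362 and 14762 in induced seedlings. AT1G67430 (L17) read 16641 and 15932 against 15319 and 13518. AT3G62870 (L7a) had a wider gap, at 15121 and 18619 against 12800.2 and 13972, and a log2 change of -0.33 ± 0.15 (limma, adjusted p = 0.171). AT2G19730 (L28) read 15788 and 15892 against 14271 and 14029.6, and AT2G01250 (L7) read 14591 and 13615 against 12864 and 12324. In all of these but L18a both induced values lay under both control values.

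Small subunit genes held 3 of the 4 calls in the cytosolic ribosome. Of 20 genes 3 fell and 17 did not pass, with a median log2 change of -0.23, and in 15 the induced arrays lay under both control arrays. The 3 falls are 15% of these genes, near the 11.8% called lower over all tested probe sets, of which 37% lay apart downward. AT5G52650, encoding S10, read 9170.2 and 9184 in control against 6840.1 and 6757 in induced seedlings, and fell by 0.43 ± 0.10 (limma, adjusted p = 0.0302). AT3G04840, encoding S3a, read 13156 and 13489 against 10238 and 9721, and fell by 0.42 ± 0.11 (adjusted p = 0.0440). AT5G16130, encoding S7, read 8922 and 8488 against 6655 and 6711, and fell by 0.38 ± 0.10 (adjusted p = 0.0466). In each of these the gap between groups was several times the gap within a group. AT5G27700, encoding S21, read 14814 and 17642 against 14688 and 12577 and did not pass. Whether small and large subunit genes differ was not tested.

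The 5 stalk genes encode P0, which anchors the stalk, and its partners P1 and P2. AT3G09200 (P0) read 17143 and 15452 in control and 16507 and 12113 in induced seedlings, with overlapping groups. AT1G01100 (P1) read 15281 and 14973 against 14273 and 13976, and its log2 change was -0.10 ± 0.11. The other P1 gene, AT5G47700, read 10276 and 10482 against 8190.2 and 7593, and fell by 0.39 ± 0.11 (limma, adjusted p = 0.0486), close to the threshold. The P2 genes AT2G27710 and AT2G27720 have consecutive locus numbers. AT2G27710 read 12202 and 14168 against 11386 and 10577, and AT2G27720 read 9676 and 9967 against 9693 and 11125. Their log2 changes were -0.26 and 0.08, and neither passed.

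**Figure D2:**
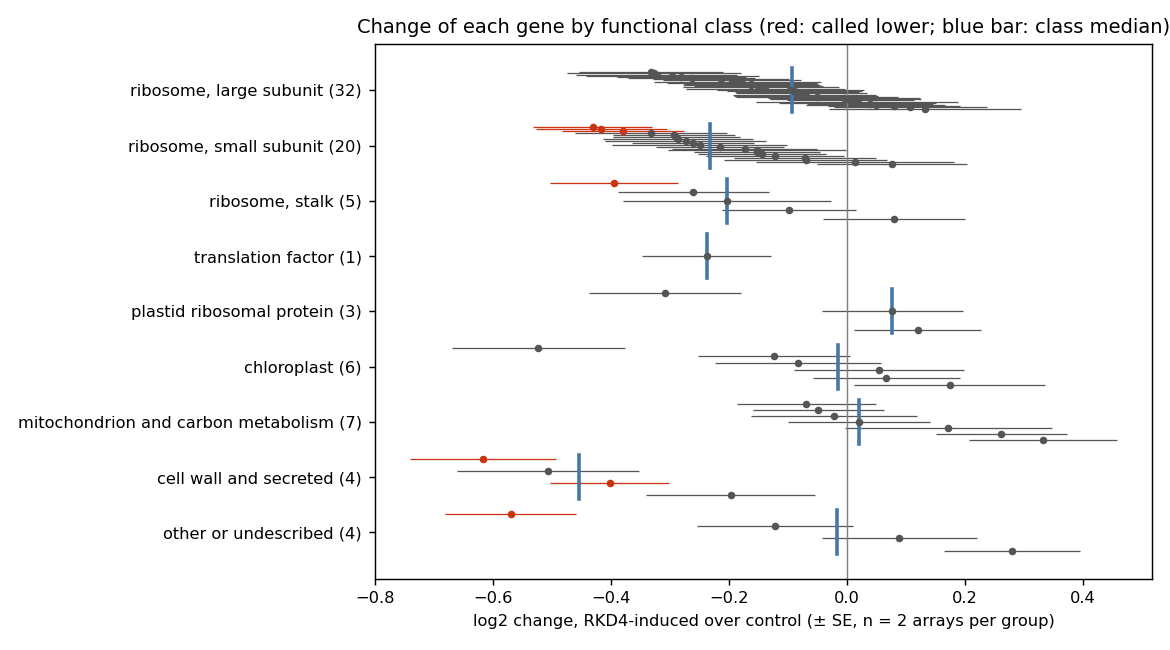
Log2 change (induced over control, ± SE, 2 arrays per group) for each of the 82 genes by class, with red for genes called lower and a blue bar for the class median. The 32 large subunit genes have a median of -0.09 and no call, the 20 small subunit genes a median of -0.23 and 3 calls, and the 4 wall and secreted genes a median of -0.45 and 2 calls. Of all tested probe sets 11.8% were called lower.

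In 16 of the 41 kinds of cytosolic ribosomal protein, 2 genes each were among the 82. In 13 of these pairs neither gene passed, in 3 pairs 1 gene fell, and in none did both. Of all tested probe sets 11.8% were called lower, and 3 falls are too few to tell whether the genes of a pair fall together. The log2 changes of a pair lay 0.15 apart in the median, from 0.0045 for L31 to 0.34 for P2. They had opposite signs in 5 pairs. For S3a, AT4G34670 read 9377 and 9953 in control and 8932 and 8556 in induced seedlings (log2 change -0.14 ± 0.11), beside the fall of AT3G04840. For S7, AT3G02560 read 8989 and 8360 against 8839 and 7701 (-0.07 ± 0.12), beside the fall of AT5G16130. No difference within a pair was tested.

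Further genes for the same kinds of protein were looked up after the values had been seen, from general knowledge of the gene families. Of 59 such genes 43 had a probe set of their own, in 33 of the 41 kinds, with mean signals from 5.05 to 10178. Of these 43, 10 fell (23.3%), 1 rose and 32 did not pass, and their median log2 change was -0.29. Over all tested probe sets 11.8% fell and 10% rose. The share that fell depended on mean signal, at 2.5% under 50, 8.89% from 50 to 100 and 13.1% from 100 to 300. It was 19.3% from 300 to 1000, 20.4% from 1000 to 3000, 14% from 3000 to 6000 and 7.08% from 6000 up. Whether a gene counts among the 82 or the 43 depends in part on its change. AT5G60670 and AT1G48830 are among the 43 because their induced values lay under 6000, and both are among the 10 falls. AT3G14600 and AT1G27400 are among the 43 because at least 1 induced value lay under 6000. Neither of these passed (limma, adjusted p = 0.0525 and 0.0946). The largest falls were of weaker genes. AT5G59240, the other S8 gene, read 429.8 and 451 in control and 230 and 221 in induced seedlings, and fell by 0.87 ± 0.12 (limma, adjusted p = 0.00579). The P0 gene AT2G40010 read 399 and 372 against 216 and 178 and fell by 0.87 ± 0.15, and its relative AT3G11250 read 1415 and 1326 against 966 and 802 and fell by 0.62 ± 0.12.

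Among the brighter relatives some fell and others did not pass. The brightest, AT2G27530 (L10a), read 10735 and 10591 in control and 10126.5 and 9259 in induced seedlings (-0.14 ± 0.11) and did not pass. Nor did AT3G14600 (L18a), AT1G27400 (L17), AT4G29410 (L28) and AT3G06680 (L29). AT5G60670, the third L12 gene, read 6759 and 7217 in control and 5101 and 4593 in induced seedlings, and fell by 0.53 ± 0.11. The other L12 genes had log2 changes of -0.05 (AT2G37190) and 0.01 (AT3G53430). AT1G48830, the third S7 gene, read 7329 and 7635 against 5063 and 5498 and fell by 0.50 ± 0.10. For S12, AT2G32060 read 6060.4 and 5744 against 4153 and 4065 and fell by 0.52 ± 0.10, while AT1G15930, 1 of the 82, read 13314 and 11259 against 9999 and 10072 and did not pass (-0.29 ± 0.13, adjusted p = 0.167). Differences between relatives were not tested. The single rise was of the P2 gene AT3G28500, from 97.4 and 131 to 254 and 281 (log2 change 1.04 ± 0.18, limma, adjusted p = 0.0110). Relatives share sequence, so a probe set can read more than its own gene. All 82 probe sets of the brightest genes carry the plain suffix that Affymetrix gives to sets designed for 1 transcript.

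**Figure D3:**
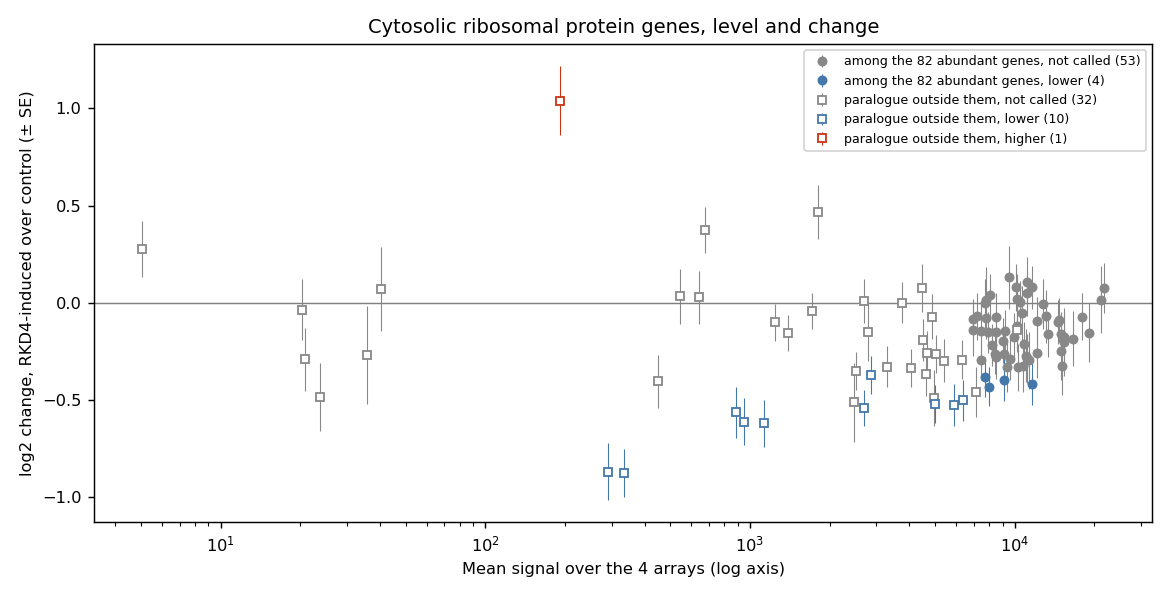
Log2 change of RKD4-induced over control (± SE, 2 arrays per group) against mean signal over the 4 arrays (log axis) for the 57 ribosomal protein genes among the brightest (filled circles) and 43 relatives outside them (open squares), with blue for called lower and red for called higher. Most points lie below 0, with 4 of the 57 and 10 of the 43 called lower and the single rise at a mean signal of 191. Of all 22746 tested probe sets 13275 had a log2 change below 0, and 11.8% were called lower. The split into circles and squares depends in part on the change, so the counts of the 2 sets are not compared.

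Genes of chloroplast function gave no call among 6, and their median log2 change was -0.01. Of all tested probe sets 21.8% passed, and 14.8% at mean signals from 6000 up, and 6 genes are too few to describe a class. AT4G01150, encoding CURT1A, which curves thylakoid membranes at the margins of grana, read 13993 and 16523 in control and 15179 and 13569.5 in induced seedlings. AT3G11630, encoding a chloroplast 2-Cys peroxiredoxin that removes peroxides, read 11846.5 and 14639.9 against 14182 and 13188. AT1G74470, a geranylgeranyl reductase that supplies the tail of chlorophyll, read 10525.5 and 12204 against 10904 and 9912. In these 3 genes the groups overlapped. AT1G51400, a small nuclear-encoded protein of photosystem II, had the largest change of the 6, with 14847 and 18592 against 11262 and 11856.5 and a log2 change of -0.52 ± 0.15 that just missed the threshold (limma, adjusted p = 0.0518). The other 2 genes, AT3G47070 (the thylakoid phosphoprotein TSP9) and AT3G58610 (ketol-acid reductoisomerase of branched-chain amino acid synthesis), had log2 changes of 0.17 and 0.07.

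The 3 plastid ribosome genes did not pass either, where 21.8% of all tested probe sets did, and 3 genes are too few to describe a class. AT2G43030 (plastid L3) read 11101.5 and 13184 in control and 9626.5 and 9903 in induced seedlings, with a log2 change of -0.31 ± 0.13 (limma, adjusted p = 0.145). AT3G54210 (plastid L17) read 8088 and 8640.3 against 8918 and 9258, and AT4G01310 (plastid L5) read 6075 and 6952 against 6557 and 7169.5. The groups lay apart downward for L3 and upward for L17, and overlapped for L5.

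Mitochondrial and carbon metabolism genes gave no call among 7, with log2 changes between -0.07 and 0.33. Of all tested probe sets 21.8% passed, and 7 genes are too few to describe a class. AT3G48140, a member of the B12D family of small proteins, read 11689 and 13155 in control and 15091 and 16165 in induced seedlings, with a log2 change of 0.33 ± 0.13 (limma, adjusted p = 0.114). It had the largest upward value of all 82 genes. AT5G64400, a protein with a CHCH domain, read 8331 and 8663 against 10625 and 9770 (0.26 ± 0.11). AT5G19760, the carrier of dicarboxylates and tricarboxylates across the inner mitochondrial membrane, read 11872 and 11516 against 12828.5 and 10338 (-0.02 ± 0.14). The T protein (AT1G11860) and H protein (AT1G32470) genes of glycine decarboxylase, which acts in photorespiration, lay at 0.02 ± 0.12 and -0.07 ± 0.12. AT3G08610, a small subunit of respiratory complex I, read 7789 and 10031 against 11194 and 8861.

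Of 4 wall and secreted protein genes 2 fell, where 11.8% of all tested probe sets were called lower, and 4 genes are too few to describe a class. AT4G16980, which encodes an arabinogalactan protein of the cell surface, read 13189 and 12049 in control and 8769 and 7691.5 in induced seedlings, and fell by 0.62 ± 0.12 (limma, adjusted p = 0.0185), the largest fall of the 82 genes. A second probe set assigned to AT4G16980 read only 95.9 and 110 against 67.0 and 84.0 and did not pass (-0.33 ± 0.19), so the probe sets disagree widely on its level. AT3G16370, a GDSL esterase or lipase gene, read 8618 and 8446 against 6452 and 6445, and fell by 0.40 ± 0.10 (adjusted p = 0.0365). AT2G45180, a secreted protein of the lipid transfer superfamily, read 14476 and 18324 against 10878.5 and 12070.4, and its log2 change of -0.51 ± 0.15 did not pass (adjusted p = 0.0645). AT1G78040, of the Ole e 1 allergen and extensin family, read 16141 and 19593 against 15976 and 15050.4 (-0.20 ± 0.14). In all 4 genes both induced values lay under both control values, as they did in 37% of all tested probe sets.

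Of the 4 other genes, AT1G13930 fell. This gene, linked to salt tolerance, read 9718 and 10177 in control and 7019.7 and 6374 in induced seedlings, a fall by 0.57 ± 0.11 (limma, adjusted p = 0.0163) and the lowest adjusted p of the 82. AT1G09310, whose protein has a DUF538 domain of unknown function, read 14426 and 16834.5 against 13993 and 14655 and overlapped. AT5G39570 read 6984 and 7933 against 9206 and 8878 and did not pass (0.28 ± 0.12, adjusted p = 0.142).

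**Figure D4:**
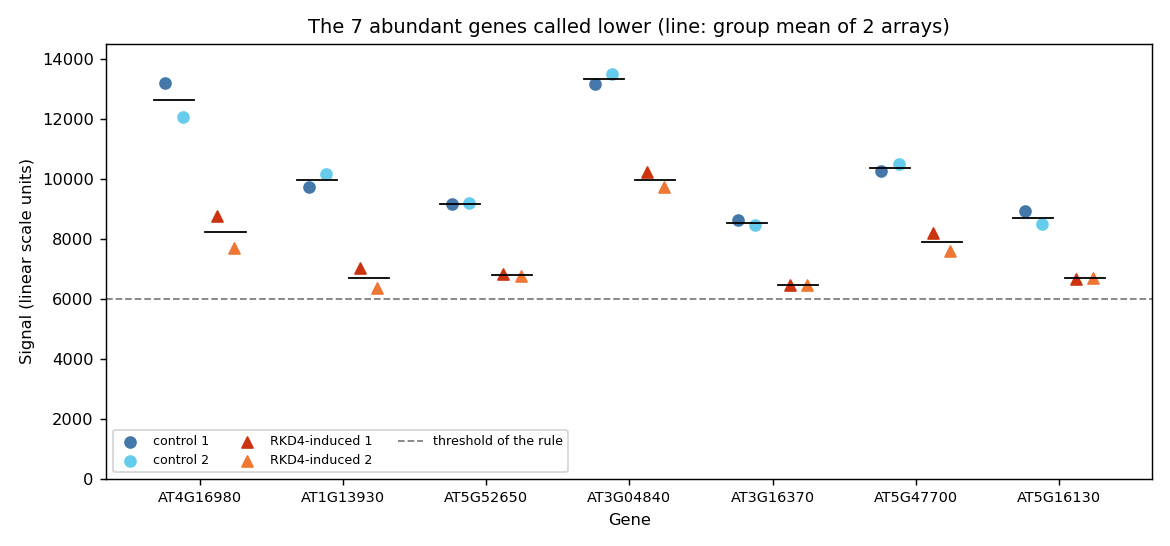
Signal on each array (linear axis from 0) of the 7 genes called lower, with circles for control arrays, triangles for RKD4-induced arrays, a line at each group mean and a dashed line at the threshold of 6000. In all 7 the arrays of a group lie close together, and the induced values sit between 6374 and 10238 where the control values sit between 8446 and 13489.

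Of the 7 falls, AT4G16980 and AT1G13930 passed under every other scaling, pseudocount, filter and model tried with all 4 arrays. With median centring, or without the variance trend, the other 5 (AT5G52650, AT3G04840, AT3G16370, AT5G47700 and AT5G16130) did not pass, with adjusted p of at most 0.0912. Of these, AT3G04840, AT5G47700 and AT5G16130 also did not pass with either of the other pseudocounts. Leaving out 1 array in turn gave log2 changes between -0.71 and -0.34. Their sign could not turn, since in all 7 genes both induced values lay under both control values.

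The share of called probe sets depended on signal over the whole array. It was 4.09% at mean signals under 50, 35.9% from 300 to 1000, 40.2% from 1000 to 3000, 33.1% from 3000 to 6000 and 14.8% from 6000 up. Over the same steps the share that changed more than 1.5-fold was 7.70%, 28.5%, 27.4%, 22.7% and 7.71%, and 1 of the 82 genes (1.22%) did so. The median SE was 0.11 from 3000 to 6000 and 0.13 from 6000 up. Whether signal still rises in proportion to transcript at this brightness was not tested. The other 278 probe sets with at least 6000 on all arrays had 13 higher and 17 lower (10.8%), a median log2 change of -0.09 and a median ratio of highest to lowest of 1.24. The difference between them and the 82 genes was not tested.

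**Figure D5:**
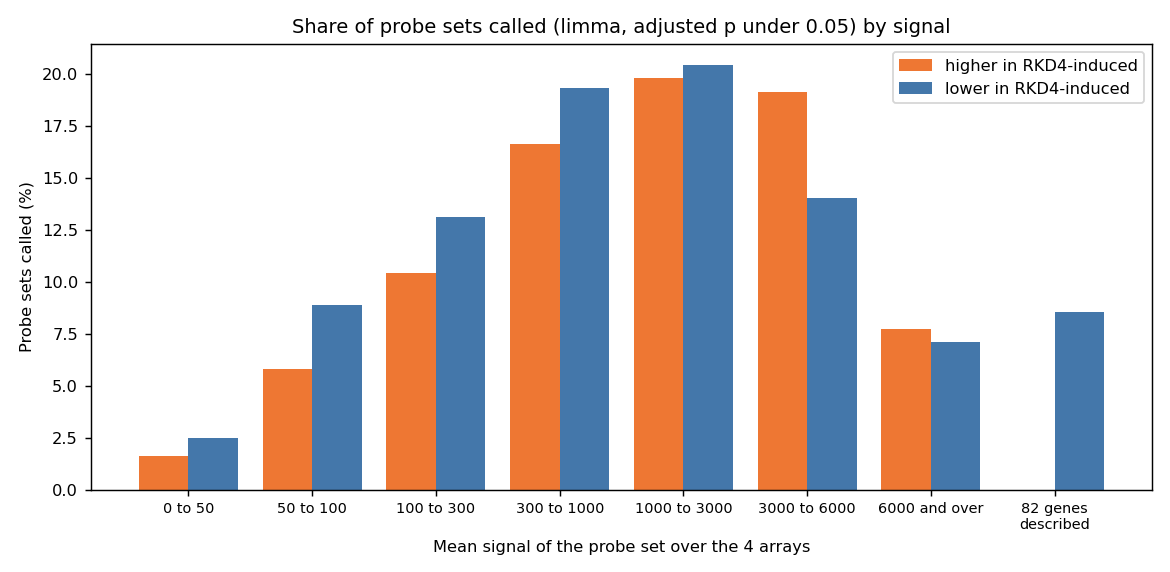
Share of probe sets called higher (orange) or lower (blue) in RKD4-induced seedlings by mean signal over the 4 arrays, with the 82 genes at the right. The share called is greatest from 1000 to 3000 and smaller from 6000 up, and the 82 genes have no rise and 8.54% falls.

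At the threshold, the 3 genes just inside were AT3G06700 (L29), with a lowest value of 6062, AT4G01310 (6075) and AT1G13930 (6374). The 3 just outside were AT3G10860 (5860.1), AT4G30010 (5802) and AT3G52730 (5736). A rule on the control arrays alone adds 18 genes that read under 6000 on at least 1 induced array. Among these 18, 4 fell and none rose, where 11.8% of all tested probe sets were called lower. Their log2 changes ran from -0.57 to -0.13, a direction that this choice largely sets. They include AT5G60670 and AT1G48830 described above, AT5G58420 (S4 of the small subunit, which fell by 0.39 ± 0.10) and AT3G57020, a strictosidine synthase-like gene that fell by 0.42 ± 0.11. Of the resulting 100 genes 11 fell and none rose, but a choice by control values alone itself favours falls.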

How the data were processed

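Biotin-labelled cRNA was made from total RNA with a 3' IVT kit from Affymetrix, according to the labels' protocols. The deposited values are a signal intensity per probe set on a linear scale. GCOS, the Affymetrix operating software, is named in the submitters' processing notes, without version or settings. Each array had a 2% trimmed mean of 500.05, and that deposited scaling was kept. Detection calls were not used here.

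From 22746 probe sets (64 AFFX controls left out) log2(signal + 32.4) was computed, 32.4 being the 25th percentile of all values. limma 3.58.1 in R 4.3.3 fitted the group to all 4 arrays with a variance trend, with Benjamini-Hochberg adjustment across all tested probe sets and a threshold of 0.05. The fit has 2 residual and 4.12 prior degrees of freedom, and an exact permutation test of 2 against 2 cannot go below 0.333. The labels call the arrays biological replicates from independent pools without saying if these were grown separately, so p-values cover the spread between these pools only.

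All 82 genes matched the TAIR10.1 gene table. The members, lists and classes were chosen with earlier results of these data known. Classes were assigned by locus from general knowledge, since the planned keywords need descriptions that the tables used here lack. Genes were named by rule: the 20 brightest, up to 12 rises and 12 falls, the 6 steadiest, 3 per class and 3 on each side of the threshold. Other genes, and all ribosomal relatives, were named after their values were seen. Promoter motifs and coordinates were not analysed here. Alternatives were other scalings, pseudocounts, a filter, no trend, a replicate block, other thresholds and each array left out.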

Additional observations from a re-analysis of the deposited data

How the results depend on the processing

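The count of 7 falls became 2 with median centring and without the variance trend, 4 with a pseudocount at the 10th percentile or of 1, and 0 at an adjusted p under 0.01 or with any 1 array left out, while quantile normalization left it at 7. The share of all probe sets called lower was 10% with median centring, 10.1% without the variance trend and 10.7% with quantile normalization. It was 12.1% with the pseudocount at the 10th percentile and 12.5% with that of 1. The filter at the 30th percentile gave 1 rise (AT3G48140, adjusted p 0.0474) and 10 falls, where fewer probe sets are tested. That filter called 17.1% of the probe sets it kept higher and 22.3% lower. A threshold of 4000 gave 150 genes with 6 higher and 12 lower, and 8000 gave 53 genes with 1 lower. At 6000 on both control arrays 11 were lower, and at a mean of 6000 there were 5 higher and 9 lower of 104. These other thresholds use the main fit, which called 10% of all tested probe sets higher and 11.8% lower. The array-wide count of 4954 was 1835 to 2223 with an array left out, where fewer residual degrees of freedom remain. The median log2 change of the genes stayed within 0.0788, the median SD within a group, of its main value throughout. Same-numbered arrays deviated with a correlation of 0.0807, so no pairing was assumed, and the replicate block gave 9 falls and 6301 array-wide calls. Signs turned for AT3G60245 with quantile normalization (0.0087), and with median centring for AT4G37830 (0.00094) and AT5G19760 (0.028). With arrays left out, log2 changes ranged from -0.43 to 0.020 for AT3G09200, -0.098 to 0.21 for AT3G11630, -0.14 to 0.18 for AT3G49910, -0.024 to 0.036 for AT3G53430, -0.20 to 0.036 for AT4G01150, -0.020 to 0.17 for AT4G01310, -0.016 to 0.094 for AT4G15000, -0.10 to 0.0040 for AT4G37830 and -0.18 to 0.13 for AT5G19760. None of these genes passed in any setting, and the cause was not tested.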

Other observations

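Some locus-named genes reached a signal of 6000 on both induced arrays but not on both control arrays. There were 21 of them, of which 13 rose and none fell in limma, where 10% of all tested probe sets were called higher. This direction is largely set by the choice. AT1G71470 read 4.26 and 2.61 in control and 6016 and 6324 in induced seedlings. AT5G48480 read 1602 and 1795 against 12097 and 10535, a log2 change of 2.71 ± 0.12 (limma, adjusted p = 0.000192). AT3G02910 read 3656 and 4068 against 8321 and 8600 (1.13 ± 0.11), and AT2G44060 read 4996 and 4880 against 8961 and 8934 (0.85 ± 0.10). These genes were chosen by the same values, after those were seen, so the adjusted p gives no separate support.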
